A study of Mus musculus with 2 samples.

Results

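The proteasome is the barrel-shaped protease that degrades ubiquitin-tagged proteins in every mouse cell, and its subunits are encoded by a scattered set of genes named Psm followed by a letter and a number. TCF12 summits lay within 5 kb of the 5' end of 45 of 49 such genes (91.8%), where 48.8% of all protein-coding autosomal genes with a known strand had one. The 49 genes are all those on the mouse autosomes whose symbol begins with Psma, Psmb, Psmc, Psmd, Psme or Psmg and a number, out of 19995 genes. They are named here by role as alpha ring (7 genes), beta ring (7), immunoproteasome (3), tissue-restricted subunits (2), regulatory ATPases (6), regulatory non-ATPase proteins (13), activators (5) and assembly chaperones (4), and the symbols of Psmc3ip and Psme3ip1 also fit the pattern.

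The data are ChIP-seq peaks, regions enriched after chromatin immunoprecipitation with an antibody to TCF12, from CH12.LX, an immortalised female B-cell lymphoma line of the mouse strain B10.H-2aH-4bp/Wts. TCF12 (HEB) is a transcription factor of the E protein family and binds the E-box motif CANNTG. The line forms 1 group of 2 biological replicates, with no treatment, knockout or other cell type beside it. A single line stands for no other B cell, and no expression was measured. The optimal list on mm10 holds 35848 peaks, those whose ranks repeated well enough under the irreproducible discovery rate (IDR) procedure. Summits lay within 5 kb of the B cell genes Cd79a, Cd79b, Pax5, Cd74 and Ebf1 (strongest signals 138 to 209), of 2 of 4 T cell genes and of 2 of 3 myeloid genes, and peaks are no measure of expression.

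The proteasome core is a stack of rings. Alpha rings gate the entrance, and beta rings carry the proteolytic sites. A regulatory particle of ATPases and non-ATPase proteins recognises, unfolds and feeds in ubiquitin-tagged substrates. Lymphoid cells and cells exposed to interferon also make the immunoproteasome, in which Psmb9, Psmb10 and Psmb8 replace the catalytic beta subunits Psmb6, Psmb7 and Psmb5 and which favours peptides for MHC class I presentation. Proteasome genes tend to be transcribed together in most tissues, and the factor NFE2L1 (NRF1 of the CNC family) raises them through antioxidant response elements when the proteasome is impaired.

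Short stretches of DNA show what lay under the summits. The ETS site CCGGAAGT, bound by factors of the ETS family and common at promoters of housekeeping genes, occurred on either strand in the RefSeq promoter window (250 bases before to 50 after the first listed start, GRCm38.p6) of 8 of 41 proteasome genes in that table (19.5%). It occurred in 5.44% of all 16457 such promoters, in 9.21% of CpG-rich ones, and in 9.74% of those of genes with a TCF12 summit. The 8 stretches are shown because in 5 of them the site lay within 20 bp of the summit of the strongest peak. Each is 30 bases of mm10 on the strand of its gene, with the match in capitals (ACTTCCGG is the reverse complement).
Psmc1, plus strand, chr12:100110162-100110191: ttggtggatgcACTTCCGGcggtggcgatt
Psmd6, minus strand, chr14:14120972-14121001: cagagacgcgaCCGGAAGTcagactggcgg
Psmd12, plus strand, chr11:107479499-107479528: atgagcgggcgACTTCCGGtgcgagtgacg
Psme3, plus strand, chr11:101316203-101316232: gctgtgacgcaACTTCCGGcgtgagcggcg
Psmg3, minus strand, chr5:139826872-139826901: acggacaggaaCCGGAAGTtctcgccggga
Psme4, plus strand, chr11:30771711-30771740: gtggccccgccCCGGAAGTgacttgaggcc
Psmc2, plus strand, chr5:21785179-21785208: gaccagtgagcACTTCCGGgatggggctcg
Psmd13, plus strand, chr7:140882377-140882406: cgcccgcggtgCCGGAAGTgagcgagcact

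The middle of the site lay 6 bp from the summit at Psme3, 10 bp at Psmd6 and at Psmd12, 12 bp at Psmc1 and 20 bp at Psmg3. It was 48 bp away at Psme4. At Psmc2 and Psmd13 the strongest peak lay elsewhere, 1550 bp and 568 bp from the site, but a weaker optimal peak lay near it. At Psmc2 the site began 85 bp upstream of the 5' end, and a summit with a signal of 83.3 lay 46 bp upstream. At Psmd13 the site began 6 bp upstream, and a summit with a signal of 12.1 lay 18 bp downstream. The 8 genes belong to 4 roles, with 2 ATPases, 3 non-ATPase genes, 2 activators and 1 assembly chaperone, and no alpha or beta ring gene in the table held the site in its window. On mm9, 7 of 45 proteasome peaks (15.6%), that of Psmb7 included, held it no more than 50 bp from the summit, against 7.12% of the strongest peaks of all genes.

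The 2 E-boxes most typical of E proteins lay under a minority of these summits, at a share near that over all genes. On mm9, where the genome sequence could be read around summits, 8 of 45 proteasome peaks (17.8%) had CAGCTG or CACCTG no more than 50 bp from the summit, against 17.5% of the strongest peaks of all genes and 13.8% of peaks within 1 kb of a 5' end. The share of any CANNTG was 26.7%, against 32.8% and 28.1%. The peaks with CAGCTG or CACCTG belonged to Psma4, Psma6, Psmc3ip, Psmd2, Psmd3, Psme1, Psme2 and Psmg4. A gene's strongest peak on mm9 was not always its strongest on mm10. That of Psme1 lay 817 bp downstream of the GENCODE start, in an intron, on mm9 and 3 bp from the RefSeq start on mm10. That of Psmc2 lay 33 bp upstream on mm9 and 1469 bp downstream on mm10. In the mm10 promoter windows CAGCTG occurred in 4.88% of proteasome genes and 15.2% of all promoters, and CACCTG in 22.0% and 19.6%. Of the E-boxes, those of the strongest peak (Psmc3ip), of the peak in which the E-box lay closest to the summit (Psmg4) and of the strongest peak at a subunit gene with such an E-box (Psmd2) are shown as 30 plus-strand bases of mm9 with 1 E-box in capitals (CAGGTG is the reverse complement of CACCTG).
Psmc3ip, upstream, chr11:100957253-100957282: tatgagctgccaCACCTGgcaggtgctttc
Psmg4, coding exon, chr13:34255002-34255031: aggctgtgggagCAGCTGgtccactttcat
Psmd2, at the start, chr16:20651741-20651770: gggcggtgcgagCAGGTGcgcgcgcagcag

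At Psmc3ip a second copy in the reverse orientation followed 1 base later, and both lay within 15 bp of the summit. The E-box of Psmg4 lay 2 bp from its summit and that of Psmd2 32 bp from its summit.

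A core of the interferon-stimulated response element, a pair of GAAA tetramers spaced by 2 bases, occurred in the mm10 promoter windows of 5 proteasome genes (12.2%), namely Psmb3, Psmd4, Psmd9, Psme1 and Psmg4, against 3.42% of all promoters and 2.94% of those of genes with a summit. None of the 3 immunoproteasome genes held it in that window. The mm9 peak of Psmb8, 614 bp downstream of the GENCODE start, held it 14 bp from the summit, and the mm10 window of Psme1 held it 10 bp from the summit. In the windows of Psmb3, Psmd4, Psmg4 and Psmd9 it lay farther from the strongest summit, at 110, 122, 162 and 188 bp. On mm9, 1 of 45 proteasome peaks (2.22%) held it no more than 50 bp from the summit, against 1.39% of the strongest peaks of all genes. The 2 stretches are shown because Psmb8 and Psme1 both belong to the interferon-inducible part of the system, with the reverse complement of the element in capitals.
Psmb8, plus strand, mm9 chr17:34335280-34335309: gtactgtggcTTTCGCTTTCacttccttgt
Psme1, plus strand, mm10 chr14:55578493-55578522: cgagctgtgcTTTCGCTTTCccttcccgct

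The other motifs searched were TGACGTCA (CREB), in none of the proteasome windows and in 2.40% of all, TGACNNNGC (the antioxidant response element) in 14.6% and 13.2%, a relaxed NF-kappaB site in 26.8% and 23.0%, CATCTG in 14.6% and 14.9%, CACGTG in 12.2% and 7.97%, GCATGCGC (NRF1, nuclear respiratory factor 1) in 7.32% and 3.66%, and ATGGCGGC (YY1) in 4.88% and 3.30%. Among CpG-rich promoters of all genes the shares were 3.93% for TGACGTCA, 15.4% for TGACNNNGC, 27.9% for the NF-kappaB site and 9.25% for CATCTG. For CACGTG, GCATGCGC and ATGGCGGC they were 11.5%, 6.50% and 5.94%, near the shares of the proteasome windows. GGGCGG (SP/KLF) occurred in 56.1% of the proteasome windows, above the 47.3% of all promoters but below the 74.4% of CpG-rich ones and the 64.6% of those of genes with a summit. CCAAT (NFY) occurred in 36.6% and in 39.1% of all, but within 50 bp of the mm9 summits in 17.8% of proteasome peaks and 10.4% of the strongest peaks of all genes. All were searched on both strands, CANNTG includes the 4 named E-boxes, and a match is only a run of letters. The 8 genes that were not matched in the promoter table were Psma8, Psmb1, Psmb2, Psmb7, Psmc3, Psmd3, Psmd7 and Psmg2.

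The summits sat close to the start of transcription. Within 1 kb of the 5' end, 44 of the 49 proteasome genes (89.8%) had a summit, against 41.6% of all genes. The strongest summit was a median of 48.0 bp from the 5' end over the 45 genes with a summit, and 150 bp over all 9756 such genes. It lay within 100 bp in 28 of the 45 (62.2%) and in 42.2% of all genes with a summit. Of the 45 strongest peaks on mm9, GENCODE vM1 placed 20 summits in untranslated exons, 16 between genes, 5 in coding exons and 4 in introns. The same split over all genes is not given here, so these counts only describe the 45 peaks.

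**Figure D1:**
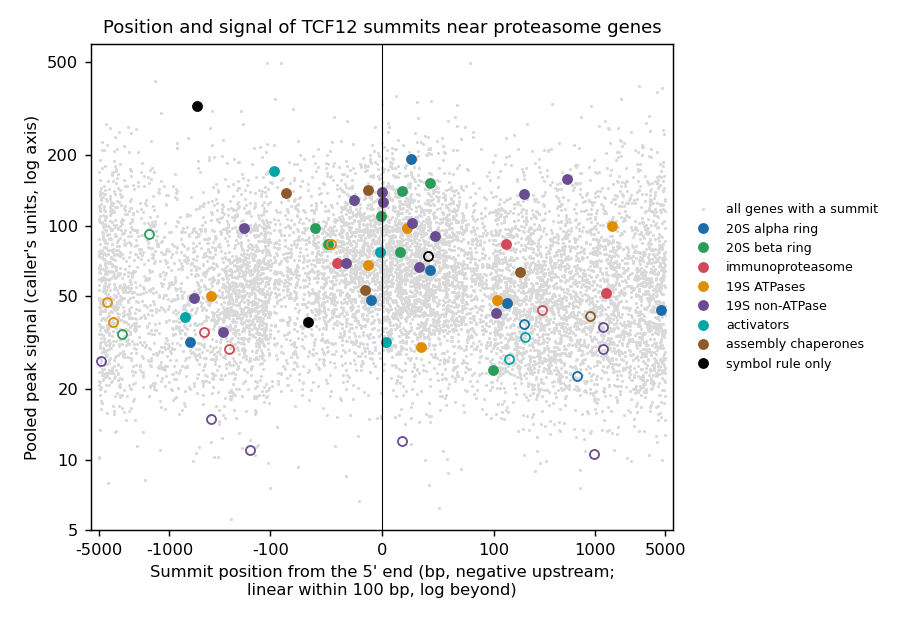
Position of each optimal summit near a proteasome gene from the gene's 5' end (x axis, bp, linear within 100 bp and logarithmic beyond) against its pooled signal (y axis, caller's units, log axis). Filled coloured points are the strongest summit of each of the 45 proteasome genes with a summit, open points their further summits, and grey points the strongest summits of all 9756 genes with a summit. The filled points crowd around 0, with 28 of 45 within 100 bp, and Psma6 at 4555 bp is the farthest.

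Over all genes, CpG-rich promoters carried a summit more often than CpG-poor ones, so the 2 kinds are given apart. Of the 41 genes with a promoter window, 29 (70.7%) had a CpG-rich promoter, with an observed over expected CpG count of at least 0.6, against 49.8% of all genes. Among CpG-rich promoters 28 of 29 proteasome genes had a summit, beside 74.3% of all such genes. Among CpG-poor promoters it was 10 of 12, beside 24.2%. The 2 kinds thus differed by few proteasome genes, with 1 and 2 lacking a summit. Most of the 10 CpG-poor genes with a summit lay just under the limit. They had ratios of 0.508 (Psmd4) or more, except Psma6 (0.185) and Psmb10 (0.192). The 2 without a summit were lower, Psmb11 (0.165) and Psme2b (0.0904). Over all genes the lower quartile was 0.229, so the 10 of 12 and the 24.2% do not compare promoters of like CpG ratio. The median CpG ratio was 0.763 in proteasome genes and 0.597 in all genes, and its part in the share with a summit was not tested.

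A gene on the opposite strand started within 1 kb of 9 proteasome genes (18.4%), against 7% of all genes. Of these 9 genes 8 had a summit, and so did 88.3% of all genes with such a partner, so in these promoters the proteasome genes stood at the background. The partners were Mrpl32 (205 bp from Psma2), Ss18l1 (19 bp from Psma7), Tap1 (226 bp from Psmb9), Dnajc2 (11 bp from Psmc2), Ftsj3 (101 bp from Psmc5), Sirt3 (85 bp from Psmd13), Rnf31 (612 bp from Psme2), Cep76 (232 bp from Psmg2) and Pcgf2 (1000 bp from Psmb3). A peak between a pair of starts cannot be assigned to 1 of the genes. Without a partner, 37 of 40 proteasome genes had a summit, beside 45.8% of all genes without one.

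Chromosome 11 holds 10 of the 49 genes, more than any other chromosome, and 9 of them had a summit. The exception was Psme2b. The matching counts over all genes of chromosome 11 are not given here, so these numbers only say where the proteasome genes lie.

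Signal, the peak caller's own value with no stated scaling, was used to rank peaks within a list. The median of the strongest pooled signal was 77.0 over the 45 genes, with quartiles of 48.4 and 126, and 56.3 over all genes with a summit, with quartiles of 37.7 and 83.6. A signal of 100 or more was reached by 14 of 45 (31.1%) and by 16.0% of all genes with a summit. Restricted to CpG-rich promoters the medians were 80.2 and 59.3. In all, 66 optimal peaks lay near the 49 genes. More than 1 summit was found at 19 of the 45 genes (42.2%), against 46.5% of all genes with a summit, but at 6 of the 19 the peaks overlapped each other.

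**Figure D2:**
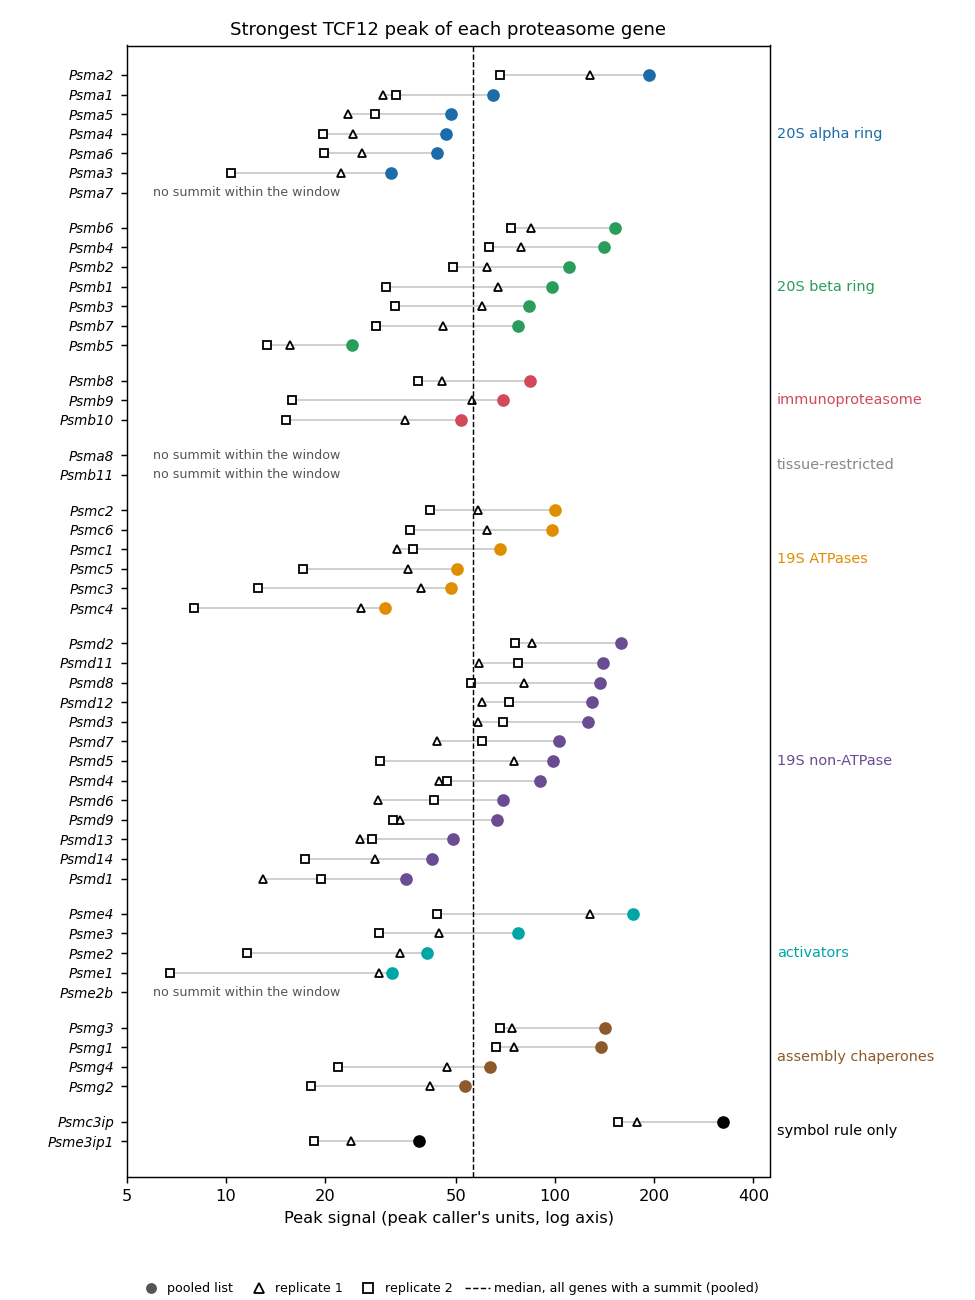
Signal of the strongest optimal peak within 5 kb of each of the 49 genes, grouped by role (x axis, caller's units, log axis). Filled circles are the pooled list, triangles replicate 1 and squares replicate 2, and the dashed line is the median over all genes with a summit (56.3, pooled). Psmc3ip reaches 324, and Psma7, Psma8, Psmb11 and Psme2b have no summit in the window.

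In the alpha ring, which gates the core, 6 of 7 genes had a summit, with a median signal of 47.5. Psma2, the gene of subunit alpha2, had the strongest at chr13:14613167-14613396, 26 bp downstream of its 5' end, with 193 in the pooled list, 128 in replicate 1 and 67.8 in replicate 2. The weakest was that of Psma3, the gene of alpha7, at chr12:70968472-70968855 with 31.8, from 22.3 and 10.4. Within 5 kb of the outermost 5' ends, Psma2 had the highest value of the ring in each replicate, while Psma1 (64.6), Psma5 (48.4), Psma4 (46.6) and Psma6 (43.8) lay close together. The start chosen for a gene mattered in this ring. Psma6 also has a listed start 14603 bp inside its outermost 5' end, and a stronger peak of 123 (60.3 in replicate 1, 60.0 in replicate 2) lay 167 bp upstream of that start. Psma3 has a start 5340 bp inside, and a peak of 45.2 (33.6 and 14) lay 4 bp from it. The only Psma6 summit within 5 kb of the outermost end, at 4555 bp, was the member nearest to the limit on the inside.

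In the beta ring of the constitutive core, all 7 genes had a summit within 100 bp of the 5' end, with a median signal of 97.7. The strongest was that of Psmb6, which encodes the caspase-like catalytic subunit beta1, at chr11:70525340-70525461 with 152, from 84.6 in replicate 1 and 73.4 in replicate 2. The weakest was that of Psmb5, which encodes the chymotrypsin-like catalytic subunit beta5, at chr14:54617704-54618087 with 24.2, from 15.7 and 13.3. In the pooled mm10 list Psmb5 was the lowest of all 45 genes, and 7.79% of all genes with a summit lay below it. It was not the lowest in either replicate or on mm9, where Psmd1 (replicate 1) and Psme1 (replicate 2 and mm9) were. Psmb4 (141), Psmb2 (110), Psmb1 (97.7), Psmb3 (83.4) and Psmb7 (77.1) encode the other subunits, of which only Psmb7 (beta2) is catalytic. A further summit at Psmb1, with a signal of 92.1, lay 4 bp from the 5' end of Tbp, the TATA-binding protein gene.

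All 3 immunoproteasome genes had a summit within 1 kb, with strongest signals of 83.9 for Psmb8, 69.2 for Psmb9 and 51.6 for Psmb10. The other 42 genes with a summit had a median of 77.1 and ran from 24.2 to 324, so the 3 lay inside their range. Psmb8, encoding beta5i, had its strongest peak at chr17:34198135-34198518, 132 bp downstream of the 5' end, with 45.3 in replicate 1 and 38.2 in replicate 2. Psmb10, encoding beta2i, had summits at 298 bp (43.5, from 27.4 and 19.1) and at 1274 bp downstream (51.6, from 35.0 and 15.2), the latter at chr8:105936926-105937309. Psmb9, encoding beta1i, had 69.2 at chr17:34187178-34187561, with 56.1 in replicate 1 and 15.9 in replicate 2. Its second peak, of 29.7, overlapped the first and matched the same replicate peaks.

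Set beside the constitutive subunits they replace, the immunoproteasome genes did not differ in 1 direction. At beta1 the signal of Psmb9 was 0.455 times that of Psmb6 in the pooled list, 0.663 times in replicate 1 and 0.217 times in replicate 2. At beta2 the signal of Psmb10 was 0.668 times that of Psmb7, and 0.764 and 0.532 times in the replicates. At beta5 Psmb8 was 3.46 times Psmb5, and 2.88 times in each replicate. On the mm9 list, called separately, the ratios were 0.433 at beta1, 0.495 at beta2 and 1.78 at beta5, where Psmb5 had 50.4 and Psmb8 89.8. The order was thus the same in both replicates and on mm9 for all 3 pairs, while the size at beta5 was smaller on mm9, and no test of a pair was made.

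Psmb8 and Psmb9 lie in the MHC class II region of chromosome 17 with Tap1 and Tap2, whose products carry peptides into the endoplasmic reticulum. The stretch plotted around them holds 10 optimal peaks. The strongest of these was not at a promoter but 7327 bp downstream of the 5' end of Psmb9, beyond its annotated 3' end, with a signal of 110 (57.5 and 52.6). A neighbour at 6694 bp had 77.8, and in this one replicate 2 was higher (36.9 and 42.4). The peak of 69.2 lay in the 226 bp between the starts of Psmb9 and Tap1 and counts for both. At Tap2 the strongest peak, 17 bp from the 5' end, had 48.3.

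**Figure D3:**
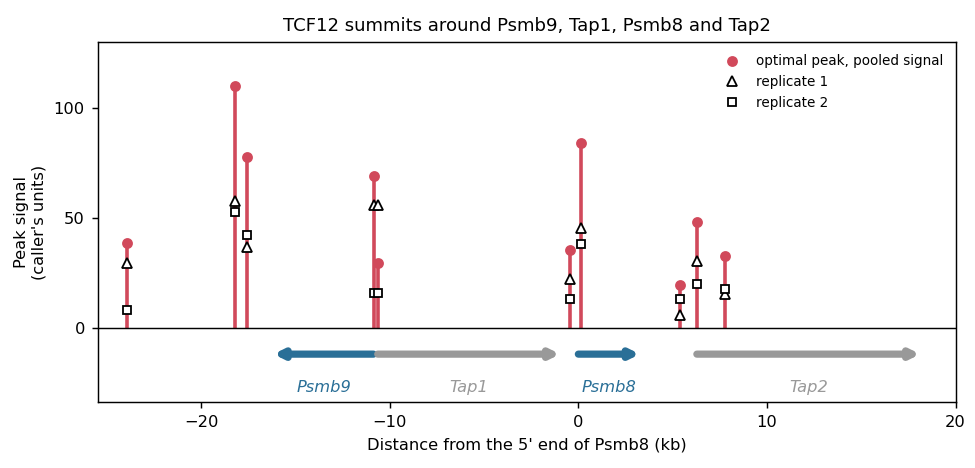
Optimal TCF12 peaks around Psmb9, Tap1, Psmb8 and Tap2, placed by distance of the summit from the 5' end of Psmb8 (x axis, kb) and drawn to their pooled signal (red, y axis, caller's units from 0), with replicate 1 as triangles and replicate 2 as squares. Arrows show gene spans and direction, proteasome genes in blue. The tallest of the 10 peaks (110) lies beyond the 3' end of Psmb9, and the peak of Psmb8 (83.9) lies 132 bp inside the gene.

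Neither of the subunits made mainly in a single tissue had a summit in the window. For Psma8, the alpha subunit of male germ cells, the nearest optimal summit lay 23.1 kb away, with a signal of 63.7. For Psmb11, the beta5t subunit of thymic cortical epithelium, it lay 7.41 kb upstream and was the peak of Psmb5 (24.2), the nearest case outside the limit. In the relaxed lists, which hold background, the strongest summit within 5 kb of Psma8 had 5.41 in replicate 1 and 2.78 in replicate 2. For Psmb11 the values were 4.67 and 4.89. These are below the lowest replicate signals of the 45 genes with a summit, 13 in replicate 1 and 6.78 in replicate 2.

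The other pair without a summit differed from each other. Psma7, an alpha ring gene with a CpG-rich promoter (CpG ratio 0.928), had its nearest optimal summit 17.5 kb away. The conservative list held a peak of 28.4 at 59 bp downstream of its 5' end. Replicate 1 alone had 16.5 at 150 bp, rank 26951 of 300000 relaxed peaks, and replicate 2 had 16.9 at 30 bp, rank 14082. Psma7 therefore changed sides with the list used. Psme2b, a copy of the activator gene Psme2, had no summit in the conservative or the relaxed lists within 5 kb.

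All 6 ATPase genes, whose products form the ring that unfolds substrates, had a summit, with a median signal of 59.1 and none at 100 or more. Psmc2 (Rpt1) was the strongest with 99.6 at chr5:21786552-21786935, from 58.1 in replicate 1 and 41.6 in replicate 2. This peak lay 1469 bp downstream of the outermost 5' end and 3 bp from a start listed inside the gene, and a peak of 83.3 (59.4 and 32.6) lay at the shared start with Dnajc2. Psmc4 (Rpt3) was the weakest with 30.5 at chr7:28049865-28050248, from 25.7 and 8.00. Between them were Psmc6 (97.7), Psmc1 (67.9), Psmc5 (50.3) and Psmc3 (48.4). The peak of Psmc5 lay 390 bp upstream and was nearer to the start of Ftsj3, an RNA methyltransferase gene.

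All 13 non-ATPase genes had a summit within 1 kb, with a median signal of 98.3, and 6 of them reached 100. Psmd2 (Rpn1), a docking subunit of the base, was the strongest with 158 at chr16:20651566-20651787, from 85.3 in replicate 1 and 75.5 in replicate 2. The summit lay 532 bp from the outermost 5' end and 2 bp from a listed start. Psmd1 (Rpn2) was the weakest with 35.2 at chr1:86064130-86064513, from 13 and 19.4. Of the lid proteins, Psmd11 (Rpn6) had 140, Psmd8 (Rpn12) 137, Psmd12 (Rpn5) 129, Psmd3 (Rpn3) 126, Psmd7 (Rpn8) 103, Psmd6 (Rpn7) 69.3 and Psmd13 (Rpn9) 49.1. Psmd14 (Rpn11), the deubiquitinase that removes the ubiquitin chain, had 42.3. Psmd4 (Rpn10), a ubiquitin receptor, had 90.1, and the base assembly chaperones Psmd5 and Psmd9 had 98.3 and 66.4.

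The balance of the replicates varied between the roles. Over all genes the strongest peak was higher in replicate 1 in most cases, and higher in replicate 2 at 14.7% of 8248 peaks, with a median ratio of replicate 1 to replicate 2 of 1.54. In the 45 proteasome genes it was higher in replicate 2 in 11 (24.4%), with a median ratio of 1.30. Of these 11 genes 8 were non-ATPase genes, where the median ratio was 0.921. The largest excess of replicate 2 was at Psmd1 and at Psmd6 (28.9 in replicate 1, 43.0 in replicate 2), both with a ratio of 0.673. Psmd7 had 43.9 and 59.9, Psmd11 58.9 and 77.1, Psmd12 59.9 and 72.6, and Psmd3 58.1 and 69.5. The median ratio was 1.27 in the alpha ring, 1.28 in the beta ring, 1.90 in the ATPases, 1.64 in the assembly chaperones, 2.31 in the immunoproteasome genes and 2.93 in the activators. No gene's strongest peak was higher in replicate 2 in the beta ring, the immunoproteasome, the activators, the assembly chaperones or the pair taken by symbol alone, which hold 2 to 7 such peaks each. This split by role was seen in the data and not planned, and with no stated scaling a ratio between replicates is not a difference in binding. Across all genes with a promoter in the table, the median ratio was 1.39 over 703 peaks of genes with CCGGAAGT and 1.55 over 6184 without it. With and without the motif it was 1.55 and 1.53 for CACCTG, 1.59 and 1.52 for CAGCTG, and 1.52 and 1.54 for TGACGTCA. Any link between a motif and the split by role was not tested.

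**Figure D4:**
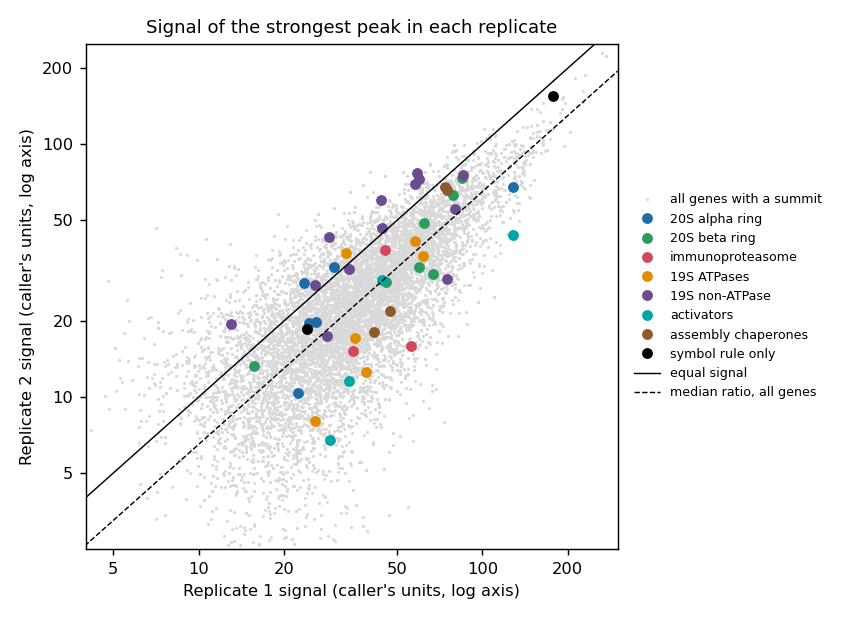
Signal of the strongest peak in replicate 1 (x axis) against replicate 2 (y axis), both in caller's units on log axes, for the 45 proteasome genes with a summit (coloured by role) and for all genes with a summit (grey). The solid line marks equal signal and the dashed line the median ratio over all genes (1.54). The points above the solid line include 8 of the 13 non-ATPase genes (purple).

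Of the 5 activator genes, whose products cap the core in place of the regulatory particle, 4 had a summit, with a median signal of 59.0. Psme4 (PA200), a nuclear activator, was the strongest with 172 at chr11:30771599-30771761, from 128 in replicate 1 and 43.7 in replicate 2. Psme1, the gene of PA28 alpha, was the weakest with 31.9 at chr14:55578305-55578688, from 29.1 and 6.78, a ratio of 4.29. Its partner Psme2 (PA28 beta) had 40.9 at 704 bp upstream, 92 bp from the start of Rnf31, a gene of the linear ubiquitin ligase, and 27.0 at 139 bp downstream of its own start. Psme3 (PA28 gamma) had 77.0 at 2 bp upstream. The interferon-inducible pair Psme1 and Psme2 thus lay below Psme3 and Psme4 in the pooled list and in both replicates.

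All 4 assembly chaperone genes had a summit within 1 kb, with a median signal of 101. These proteins build the alpha ring. Psmg3 was the strongest with 142 at chr5:139826715-139827098, from 73.9 in replicate 1 and 67.8 in replicate 2. Psmg2 was the weakest with 53.1, from 41.6 and 18.1, and shares its promoter with Cep76. Psmg1 had 138 and Psmg4 had 63.4.

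The symbol rule also took a pair of genes that encode no part of the proteasome. Psmc3ip, the gene of the meiotic recombination protein HOP2, had the strongest signal of all 49 genes, 324 at chr11:101095811-101096125, from 177 in replicate 1 and 155 in replicate 2. This summit lay 535 bp upstream of the 5' end, and 99.8% of all genes with a summit had a lower strongest signal. A second peak of Psmc3ip, 41 bp downstream of the 5' end, had 74.1 (35.5 and 40.6). Psme3ip1, whose product binds the activator encoded by Psme3, had 38.7. Without Psmc3ip the median over the genes with a summit was 73.1, and without both it was 77.0.

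Genes of the wider pathway were taken from 3 lists. Of 12 measured genes for other proteasome parts and regulators (13 listed, Paaf1 not used here) all 12 had a summit within 5 kb and 10 within 1 kb, with a median strongest signal of 71.1. The strongest were Uchl5, a proteasome-bound deubiquitinase (131, from 73.4 in replicate 1 and 58.1 in replicate 2), Zfand5 (129, from 70.9 and 60.5) and Psmf1, the inhibitor PI31 (120, from 65.6 and 54.5). The receptor gene Adrm1 had 62.3, the lid gene Sem1 110 and the assembly factor Pomp 77.1. Of 11 genes of transcription and substrate delivery all had a summit within 1 kb, with a median of 85.8. Nploc4 (141), a cofactor of the unfoldase Vcp, and Ddi2 (102), the protease that activates NFE2L1, were among the strongest. Nfe2l1 itself had 5 summits, the strongest 91.1 (39.3 and 48.9), and Vcp itself had the lowest signal of the list, 14.5.

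All 14 genes of MHC class I presentation had a summit within 1 kb, with a median of 74.1. Irf1, an interferon-regulated factor, had 177 (125 in replicate 1, 51.2 in replicate 2), and B2m, the light chain of MHC class I, had 175 (110 and 65.6). Nlrc5, the class I transactivator, had 44.4 (32.0 and 14.1). The 3 lists of 37 measured genes thus all had a summit in the window, as did 48.8% of all genes, and the lists were not matched to other genes by promoter type or expression.

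No test was made on these counts, because there is 1 group and the genes were chosen with earlier results known. The counts and medians describe these genes, and other genes expressed in every cell were not compared with them.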

How the data were processed

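Peaks of TCF12 ChIP-seq came from 2 biological replicates, numbered as in the labels. Per the deposited file descriptions, the authors called relaxed peaks on each replicate and on both pooled, each with a control alignment, and derived optimal and conservative lists by IDR on mm10. The aligner, the caller and read depth were not given in the sources used here. The signal per peak is the authors' caller's own value, deposited with no stated scaling, so no interval was computed. The score is the deposited scaled IDR score, where 830 stands for an IDR of 0.01. The authors' deposited summit offset placed each summit.

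Gene ends came from RefSeq (GRCm38.p6), the strand from its promoter table for 16457 genes or GENCODE vM1 for 3538, giving 19995 of 20665 protein-coding autosomal genes (96.8%). The 5' end is the outermost. A replicate's signal is its strongest relaxed peak overlapping the optimal peak by at least 1 bp. Motifs at summits and gene features used the mm9 list (23575 peaks, NCBIM37 with GENCODE vM1), in which 2 genes were matched by an older name. No coordinate was converted. Every gene of the rule is accounted for, with full values for the strongest and weakest of each role and for genes without a summit, and the 3 strongest of each pathway list, of which a few items are not reported here. The genes and lists were chosen with earlier results of these data known. The calculations used Python 3.11.15, pandas 2.3.3, numpy 2.4.6 and matplotlib 3.10.9. The search for summits near 5' ends and the motif search were tested on planted summits and motifs, and the other steps were not.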

Additional observations from a re-analysis of the deposited data

How the results depend on the processing

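Of 46 alternative values, 44 kept their side within the limits set (counts within 1.5 times). These limits were wide. A count of 45 out of 49 could leave them only by a large fall, and a rise from 8 to 12 still counted as kept. The number of genes with a summit within 5 kb ran from 41 to 46 of 49. It was 46 with the conservative list (Psma7 gained), 41 at a score of at least 830 (Psma3, Psmb5, Psmd1 and Psme1 lost), 46 within 10 kb (Psmb11 gained), 43 when each summit counted only for the nearest gene (Psma4 and Psmc5 lost) and 45 with the mm9 list. The share over all genes also moved with the setting. In the same order it was 48.8%, 43.1%, 54.0%, 44.2% and, over the mm9 genes, 41.5%, beside 48.8% in the main setting. With replicate 1 or replicate 2 left out and as many of the other's strongest peaks taken, the number was 46 in both cases. The shares over all genes were then 49.9% and 49.7%. The median strongest signal moved from 77.0 to 32.4 without replicate 1 and to 44.4 without replicate 2, the scale of single-replicate values being lower at the same peaks. E-boxes at summits rose from 8 to 12 of 45 with 100 bp either side, and with any CANNTG. No paired analysis was possible because there is 1 group. Chosen after seeing the data were the use of any listed start (45, beside 50.4% of all genes), the exclusion of Psmc3ip with Psme3ip1 (43, beside 48.8%), the CpG-rich and divergent backgrounds, the mm9 ratios of beta subunits and the NRF1 and YY1 motifs. Depth is unknown, so a missing peak cannot be told apart from a weak one.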
